A study of Homo sapiens with 2 samples.

Results

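The 10 TNF receptor family genes described here are TNFRSF1A, TNFRSF1B, TNFRSF10A, TNFRSF10B, TNFRSF10C, TNFRSF10D, TNFRSF12A, TNFRSF21, TNFRSF25 and FAS. They are read by 20 of the 45033 probe sets. They were chosen by name out of the 23619 genes on the arrays, with the intensities and differences of these same arrays in view, so those values are given as a description. RNA came from HCT15, an established human colorectal cancer line. The cells stably carried a lentiviral hairpin (pLentiLox 3.7 vector) and were sorted on GFP. One sample carried LYAR-shRNA and the other Scramble-shRNA; the labels describe LYAR hairpins made from more than 1 siRNA and do not state in words which one was used. With 1 array per group, each difference compares 2 arrays and no test was made. The only spread available is that between probe sets of the same gene, a pooled SD of 0.46 on the log2 scale, and it is not a replicate error.

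Receptors of the TNF family are membrane proteins that bind trimeric ligands. Those with an intracellular death domain, the death receptors, recruit adaptors such as FADD or TRADD and can start caspase-8 activation, while TNFR1 and several others also signal to NF-kB through TRAF proteins, RIPK1 and IAP ligases. Decoy receptors bind TRAIL without passing on a full death signal. In colon epithelium and colorectal cancer cells, FAS and the TRAIL receptors are known as triggers of apoptosis.

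All 10 genes had a lower mean intensity on the array of LYAR-shRNA cells, by 0.05 to 0.68 on the log2 scale, and 0 of the 10 reached 2-fold. Among all 23619 genes 48.3% were lower on that array, and among the 12682 that passed an intensity filter 45.4% were. The filter asked that a gene reach 105.9, the median intensity of all genes, on its brighter array. The receptors passed in 9 of 10 cases, and TNFRSF1B, at 105.8 on the brighter array, missed it. In that filtered set, 3.56% of genes reached 2-fold lower and 11.0% reached 1.5-fold lower, and 1 receptor gene, TNFRSF12A, reached 1.5-fold. The rule that chose the receptors had these differences in view, so nothing is read from the counts. The median difference was -0.35 over the 8 death and decoy receptors and -0.55 over the other 2, beside 0.05 for all genes that passed.

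**Figure D1:**
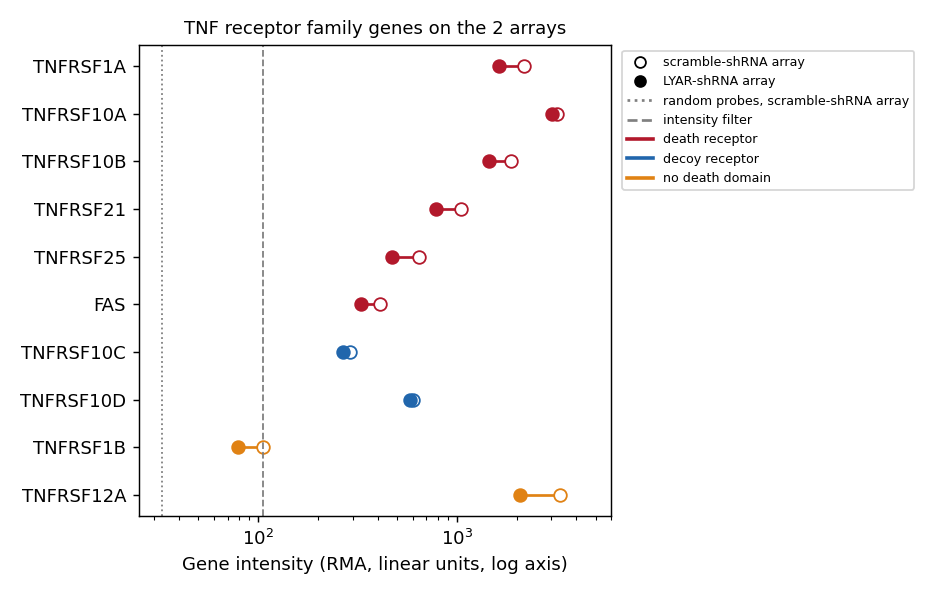
Gene intensity (RMA, linear units on a log axis) of each receptor gene on the scramble-shRNA array (open circles) and the LYAR-shRNA array (filled circles), coloured by class, with dotted and dashed lines at the random control probes (32.7) and the intensity filter (105.9). Every filled circle lies left of its open circle, from 62.5% of the scramble value for TNFRSF12A to 96.6% for TNFRSF10D, and no alternative processing turned a direction; levels of different genes are not comparable.

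TNFRSF12A, also called Fn14, is the receptor for the ligand TWEAK and has no death domain. Its single probe set, on chromosome 16 from 3010360 to 3012385 in hg18, measured 2074 in LYAR-shRNA cells and 3320 in scramble-shRNA cells. This was the largest difference of the 10, at -0.68, or 1.60-fold lower with LYAR-shRNA. Of the genes that passed the filter, 8.57% lay further in that direction. It stands among the 4228 brightest of those genes, where probe sets of one gene spread with a pooled SD of 0.23 and 6.05% of genes reached 1.5-fold lower. Its ligand gene TNFSF12 (TWEAK) also read lower, at 288 against 717 and -1.32, from 1 probe set. The neighbouring ligand gene TNFSF13 (APRIL), which can be joined to TNFSF12 in readthrough transcripts, lay the other way at 0.82, with probe sets of 0.50 and 1.14.

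The TNF-binding receptors had like differences, in the same direction. TNFRSF1A encodes TNFR1, the widely expressed death-domain receptor for TNF, and lies on chromosome 12 from 6308183 to 6321522 in hg18. It measured 1630 with LYAR-shRNA against 2170 with the scramble hairpin, a difference of -0.41. TNFRSF1B encodes TNFR2, which lacks a death domain and signals through TRAF proteins, and lies on chromosome 1 from 12149646 to 12191864. Its brighter probe set read 272 against 367, a difference of -0.43. The second gave 22.8 and 30.5, below the random control probes on both arrays (30.3 and 32.7), so no fold is given for it and the gene mean of 78.7 and 105.8 rests partly on background.

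Among the remaining death receptors outside the TRAIL group, TNFRSF21 (DR6), known from neurons and lymphocytes, read 782 with LYAR-shRNA against 1056, a difference of -0.43. Its probe set lies on chromosome 6 from 47307226 to 47385639 in hg18. FAS, the receptor for FAS ligand, read 328 against 410, a difference of -0.32, on chromosome 10 from 90740267 to 90765522. TNFRSF25 (DR3), the receptor for TL1A, is known mostly from lymphocytes and has many splice forms. It lies on chromosome 1 from 6443797 to 6448842 and had a gene value of 473 against 642, a difference of -0.44.

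The 6 probe sets of TNFRSF25 all gave negative differences but did not match each other in size. The brightest on the scramble array read 1469 with LYAR-shRNA and 2037 with scramble, or -0.47, while the next read 1486 and 1613, or -0.12. The third in order read 493 and 911, a difference of -0.89 and the largest among the 20 probe sets of the family genes studied. The 2 after it gave -0.40 and -0.57. The last, at 29.5 and 33.9, lay at the level of the random probes on both arrays. The SD between the probe sets was 0.28 around the gene's mean of -0.44. They carry the identifiers of different transcripts of the gene; which exons their probes read is not given in the sources used here.

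**Figure D2:**
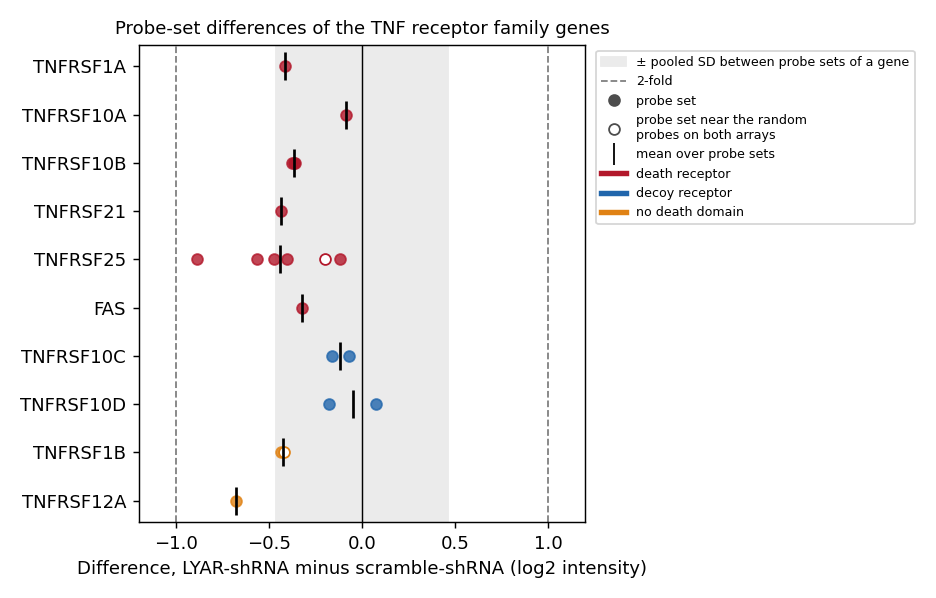
Difference in log2 intensity, LYAR-shRNA minus scramble-shRNA, for every probe set (circles; open where near the random probes on both arrays) and their mean (black bar) for each receptor gene; the grey band spans 1 pooled SD (0.46) either side of 0, and dashed lines mark 2-fold. Of 20 probe sets 19 lie below 0, the exception being 1 of the pair for TNFRSF10D at 0.08. By gene, 48.3% of all 23619 were lower. The receptors were chosen with these differences in view and 2 of the 20 probe sets were near random level on both arrays, so nothing is read from the count. The mean of TNFRSF12A alone lies outside the band.

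TNFRSF1A, TNFRSF21 and TNFRSF25 had nearly equal differences by gene mean, -0.41 to -0.44. The 250 bases upstream of their starts are shown to set their promoters side by side. TNFRSF1B lay in that range too, at -0.43 with a mean that rests partly on background, and its window is not printed. The mean of TNFRSF25 also takes in a probe set at random level. Without that probe set its difference was -0.49, and with the median of the probe sets it was -0.61. The sequences are RefSeq's, in the GRCh38.p14 build, on the minus strand of the chromosome and printed 5′ to 3′ along the gene. Capitals mark the GC box bound by SP-type factors, searched as GGGCGG on both strands with overlaps counted. TNFRSF1A lies at chr12:6342077-6342326, TNFRSF21 at chr6:47309906-47310155 and TNFRSF25 at chr1:6466174-6466423.
TNFRSF1A: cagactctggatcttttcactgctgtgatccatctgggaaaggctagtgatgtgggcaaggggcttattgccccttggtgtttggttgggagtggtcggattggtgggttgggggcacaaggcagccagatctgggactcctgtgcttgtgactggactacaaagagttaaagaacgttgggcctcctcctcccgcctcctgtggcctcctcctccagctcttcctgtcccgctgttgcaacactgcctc
TNFRSF21: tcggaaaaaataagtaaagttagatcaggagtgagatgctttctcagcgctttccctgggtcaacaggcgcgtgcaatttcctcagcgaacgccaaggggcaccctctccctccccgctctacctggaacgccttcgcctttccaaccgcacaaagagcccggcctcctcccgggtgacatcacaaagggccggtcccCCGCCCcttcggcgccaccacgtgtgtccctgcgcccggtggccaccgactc
TNFRSF25: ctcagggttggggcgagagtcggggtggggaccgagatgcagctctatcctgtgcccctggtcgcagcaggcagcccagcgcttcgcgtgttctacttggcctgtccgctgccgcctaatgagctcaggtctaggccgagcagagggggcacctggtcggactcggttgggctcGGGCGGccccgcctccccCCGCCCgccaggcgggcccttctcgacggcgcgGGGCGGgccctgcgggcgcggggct

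These 3 promoters shared little by the letters searched. The GC box matched 0 times in the window of TNFRSF1A, 1 time in TNFRSF21 and 3 times in TNFRSF25, and at least once in 42.6% of the 35116 RefSeq windows of the same length. GC content was 56.8%, 62.0% and 73.6%, beside a median of 58.0% over all windows. The E-box CACGTG was found in TNFRSF21 only among these 3, and in 6.34% of all windows; the CCAAT box was found in TNFRSF1A only and in 32% of all. The AP-1 letters TGANTCA, the TATA letters TATAAA and a kappa-B site were in none of the 3, and in 6.57%, 10.7% and 5.21% of all windows. The windows of 5 of the receptor genes were searched in all, 7 windows with 3 starts for FAS. TNFRSF1B held 2 GC boxes and the FAS windows 1, 2 and 1. The GC box was thus in 6 of the 7 windows, beside 42.6% of all, and 3 of the 7 belong to FAS alone. Of those FAS windows 2 overlap and hold the same single GC box, so the 6 are not separate promoters with separate boxes. An AP-1 match was in 1 FAS window and a kappa-B match in another. These are matches of letters and say nothing of binding in these cells.

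The TRAIL receptors lie side by side within 205 kb of chromosome 8, from 22933590 to 23138584 in hg18. TNFRSF10B (DR5), a death receptor for TRAIL, had 3 probe sets, which read 2703 against 3506, 2298 against 2960 and 490 against 630 (LYAR-shRNA first). Their differences were -0.38, -0.37 and -0.36 (mean -0.37), with an SD of 0.0073, the closest match among the 5 receptor genes with more than 1 probe set. TNFRSF10A (DR4), the second death receptor for TRAIL, read 3020 against 3210, or -0.09, on a single probe set. A gap of 0.28 thus separates the gene values of DR5 and DR4, both among the brightest genes. Probe sets of the brightest genes spread with an SD of 0.23 around their own gene's mean. That SD is not the spread of a gap between genes, and the gap was not tested.

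The decoys had the smallest differences together with DR4. TNFRSF10C (DcR1), which is anchored in the membrane without a signalling domain, read 262 against 292 and 274 against 288, with differences of -0.16 and -0.07 (mean -0.12). TNFRSF10D (DcR2), which has a truncated death domain, read 1866 against 2110 in its brighter probe set, or -0.18, and 180 against 171 in the other, or 0.08 (mean -0.05). The latter was the 1 probe set of the 10 genes that was brighter in LYAR-shRNA cells. Median differences were -0.39 for the 6 death receptors and -0.08 for the 2 decoys, both negative under each scaling tried, and the gap was not tested. DcR2 ran from -0.18 to -0.05 over the alternatives and DcR1 from -0.21 to -0.07, and with the brightest probe set the order of these 2 and DR4 turned round, with DcR2 at -0.18, DR4 at -0.09 and DcR1 at -0.07. These 4 genes are related in sequence, and whether probes of one also read another was not tested.

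Their neighbours on the chromosome did not share a direction. Within 150 kb on either side, 5 other genes passed the filter, and 2 of them were lower in LYAR-shRNA cells. CHMP7, of the ESCRT machinery, differed by -0.37 and LOC254896, whose span runs into that of DcR1, by -1.73 (76.9 against 255). On the positive side, RHOBTB2 differed by 0.20, R3HCC1 by 0.70 and TNFRSF10A-DT, the divergent transcript at the start of TNFRSF10A, by 0.36. These neighbours were named after their values were seen.

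Sizes can be set against the spread of probe sets at like brightness. Among the brightest genes, with the SD of 0.23, TNFRSF12A, TNFRSF1A and DR5 differed by more than that SD and DR4 by less. Among the 4226 genes of middle brightness the SD was 0.40, which TNFRSF21 and TNFRSF25 exceeded slightly, whereas FAS, DcR1 and DcR2 did not. TNFRSF1B did not pass the filter and was placed in no brightness group. Among the 4228 dimmest genes that passed, the SD was 0.66, larger than its difference of -0.43 in size. Ordered by difference, the genes ran TNFRSF12A, TNFRSF25, TNFRSF21, TNFRSF1B, TNFRSF1A, DR5, FAS, DcR1, DR4 and DcR2, and no neighbours in that order were further apart than the pooled SD of 0.46. The share of filtered genes that lay further in the lower direction was 8.57% for TNFRSF12A, 15.9% to 17.2% for TNFRSF25, TNFRSF21, TNFRSF1B and TNFRSF1A, 19.5% for DR5, 21.7% for FAS and 35.8% to 41.2% for the last 3. LYAR itself, the target of the hairpin, read 1036 against 1925, or 53.8% of the scramble value.

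**Figure D3:**
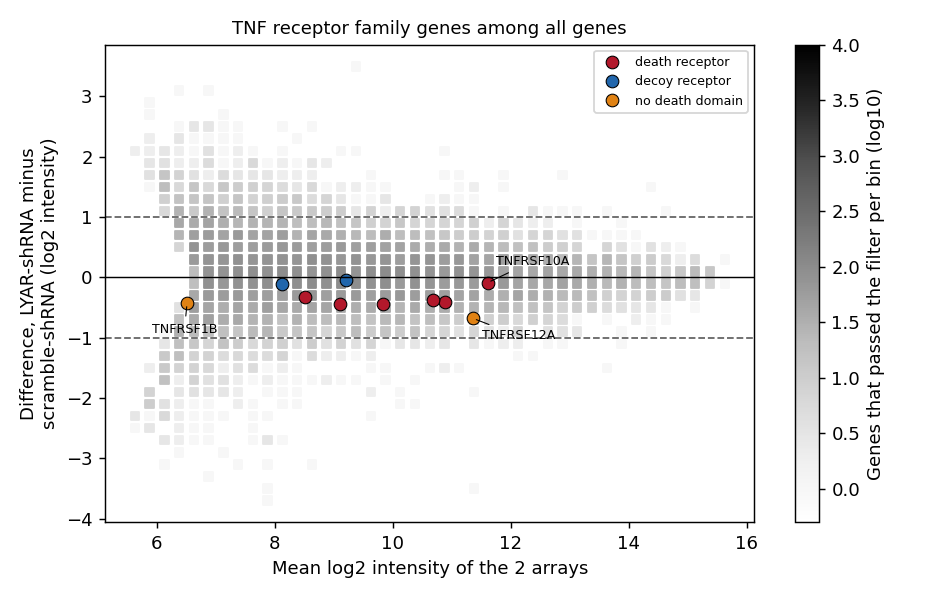
Difference in log2 intensity (LYAR-shRNA minus scramble-shRNA) against mean log2 intensity over both arrays; grey squares count all genes that passed the filter and coloured points are the 10 receptor genes, with dashed lines at 2-fold. The receptors lie between -0.68 and -0.05, inside the bulk of genes, whose SD of differences runs from 0.81 among the 4228 dimmest to 0.40 among the 4228 brightest; TNFRSF1B, drawn with them, did not pass the filter.

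The other 19 genes of the receptor family, listed with earlier results of these data known, went both ways. Of the 9 that passed the filter 6 were lower and 3 higher, with 0 at 2-fold in either direction, where 5.06% of filtered genes reached 2-fold higher. Their median was -0.33, and over all 19 it was 0.05. TNFRSF8 (CD30) read 158 against 274, or -0.79, RELT -0.47, and LTBR, the lymphotoxin beta receptor beside TNFRSF1A on chromosome 12, -0.33. The soluble decoy gene TNFRSF6B had a mean of -0.50 whose probe sets ran from -2.02 to 0.37. In the opposite direction TNFRSF9 (4-1BB) read 644 against 323, or 0.996, just short of 2-fold. EDAR, the ectodysplasin receptor, read 698 against 375 in its brighter probe set, or 0.90. Over both of its probe sets it was at least 1.05-fold higher, a bound set by the dimmer one in scramble cells. TNFRSF14 (HVEM) had a mean of 0.10, but its probe sets lay on both sides of 0, at 0.09, -0.14 and 0.35. On the short arm of chromosome 1, which holds 7 of the 29 family genes including TNFRSF25 and TNFRSF1B, 4 were lower and 3 higher.

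Among ligand genes of the death receptors, TNF, FASLG and TNFSF10 were near random level, below 2 times the random probes. TNF read 31.1 with LYAR-shRNA and 46.3 with scramble, FASLG 20.1 and 29.7, and TNFSF10, which encodes TRAIL, 32.9 and 41.9; this held for each of their probe sets on both arrays, so no direction is given. Of 18 ligand genes 8 passed the filter, 6 of them lower and 2 higher, and 3 were at least 2-fold lower by measured intensity. These were TNFSF12, LTB at -1.08 and CD40LG. CD40LG, a T-cell ligand, was at least 1.91-fold lower, since both probe sets lay near random level with LYAR-shRNA. LTA, which encodes lymphotoxin alpha, a ligand of the TNF-binding receptors, passed with gene values of 220 and 222 and was named after its values were seen; its brightest probe set read 1529 against 1955, or -0.35. TNFSF15, the TL1A ligand of TNFRSF25, also passed, at 134 against 83.2. Its 7 probe sets ran from -0.22 to 1.58, with a single one below 0, and 2 of them were near random level in scramble cells. No direction is given for the gene, since its probe sets lay on both sides of 0. The list's median was -0.15 over all 18 genes and -0.51 over the 8.

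Inside the cell, the death-inducing complex and executioner genes were split, with 12 of 20 passing genes higher and 8 lower. Here 0 were at 2-fold in either direction, and the median over 22 genes was 0.10. The adaptors FADD and TRADD lay at -0.29 and -0.18, like the receptors in sign. CASP8, the initiator caspase that FADD recruits, was at least 1.06-fold higher over 4 probe sets; the brightest gave 0.08 (278 against 263) and 2 were near random level in scramble cells. RIPK1, the kinase of the TNFR1 complex, read 820 against 533, or 0.62, and APAF1, the scaffold of the apoptosome, 0.72. CFLAR, which encodes the caspase-8 inhibitor c-FLIP, differed by 0.45, with probe sets from 0.10 to 0.92. The mitochondrial pore genes BAK1 and BAX lay at -0.78 and -0.56, and BID, which links death receptors to them, had a mean of -0.52 with probe sets from -1.11 to 0.43.

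For TRAF, IAP and ubiquitin-signalling genes, 17 of 24 were lower and 7 higher, with a median of -0.10 over 27 genes and 0 at 2-fold. RNF31, the catalytic subunit of the linear ubiquitin ligase, read 1766 against 3347, or -0.92, and IKBKG (NEMO), which binds linear ubiquitin, -0.58. TRAF2, an adaptor of TNFR1 and TNFR2, was at least 1.11-fold lower, and BAG4, which binds the TNFR1 death domain, read 281 against 637 in 1 probe set, or -1.18, while its other was near random level on both arrays. On the other side were OTULIN, a linear deubiquitinase, at 0.53 and BIRC2 (cIAP1) at 0.36. TAB1, a subunit of the TAK1 complex, gave -0.46 in its brighter probe set, and the other was near random level in scramble cells, so no direction is given for the gene.

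Genes that act on the receptors after synthesis also diverged, with 2 of 6 passing genes higher and 4 lower. ADAM17, the sheddase that releases TNF and TNF receptors from the cell surface, read 155 against 94.7 and was at least 1.52-fold higher. That bound is the value of its brighter probe set (226 against 149). The dimmer probe set was near random level in scramble cells. ADAM10, a related sheddase, was at least 1.92-fold higher from 1 probe set (126 against 58.9). RHBDF2 and RHBDF1, the iRhom partners of ADAM17, lay at -0.61 and -0.53, and the fucosyltransferase gene FUT6 at -0.57. Among 10 listed genes the median was -0.20.

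TNF-induced NF-kB targets, the usual readout of TNFR1, were split as well, 8 higher and 7 lower of 15 that passed. The higher ones included chemokine genes. CXCL8 read 414 against 141 and CXCL1 215 against 69.7, while CXCL2 was at least 2.57-fold higher. With CXCL3, named after its values were seen and at least 2.36-fold higher, 4 genes reached 2-fold by measured intensity. RELB and NFKB2, subunits of the non-canonical branch downstream of TNFR2, Fn14 and LTBR, lay at -0.85 and -0.53, and ICAM1 at -0.37. The list median was 0.13.

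**Figure D4:**
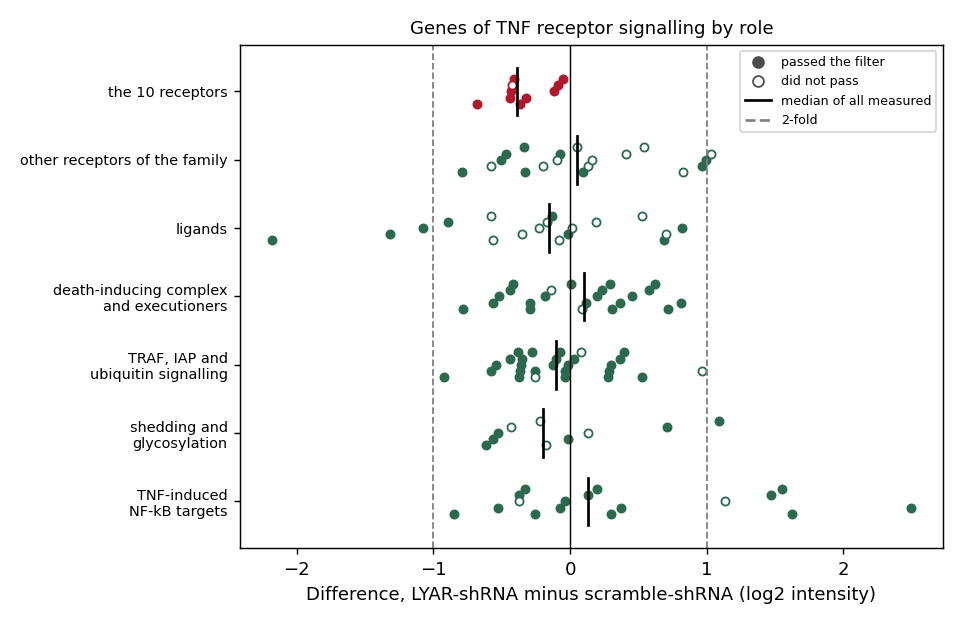
Difference in log2 intensity (LYAR-shRNA minus scramble-shRNA) of each gene by role, filled where the gene passed the intensity filter, with the median of all measured genes as a black bar and 2-fold as dashed lines. The receptors' median is -0.39; the medians of the 6 other lists run from -0.20 to 0.13 over measured genes, and over passing genes the ligands' is -0.51, the other receptors' -0.33 and the shedding list's -0.27.

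The arrays were checked against cell type markers. Of 12 epithelial genes 9 passed the filter and 0 reached 2-fold. KRT8 read 41613 against 41639 and EPCAM 8235 against 8626, whereas CDH1, VIL1 and CDX2 were higher with LYAR-shRNA by 0.52, 0.51 and 0.30. CDH17 had a mean of 0.49, but its probe sets disagreed. The brighter read 644 against 685, or -0.09, and the other 282 against 134, or 1.07. CDX1 and KRT20 had gene values near random level on both arrays. Markers of blood cells differed between the arrays. B and plasma cell genes that passed were 3 of 7 (IGKC, CD79A and IGHM), each at least 2-fold lower with LYAR-shRNA by measured intensity, and the list summed to 306 against 1830, with the B-cell marker MS4A1 near the random probes at 22.5 and 26.6. For other leukocytes 3 of 8 passed, all lower (CD68, CD3E and CD14), with sums of 573 against 1150. PTPRC, the pan-leukocyte marker CD45, had a gene value of 56.8 and 63.0, with 1 of 4 probe sets near random level on both arrays. Its other probe sets disagreed in direction. They read 84.0 against 137.2, 82.2 against 52.3 and 67.6 against 53.8, the latter pair near random level in scramble cells. Erythroid genes that passed were 4 globins of 5 genes, with sums of 334 against 1574 and ALAS2, the erythroid enzyme that starts heme synthesis, near the random probes at 33.9 and 29.7. Fibroblast and endothelial lists had 1 of 6 and 0 of 4 passing. TNFRSF1B and TNFRSF25 are known from lymphocytes as well as epithelium, and the part of these blood-cell signals in the receptor differences was not tested. The cells were an established line sorted on GFP, and whether any blood cells were present was not tested. In bulk RNA, fewer cells of a type and less RNA per cell cannot be told apart.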

How the data were processed

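Per the submitters' processing notes, the authors summarised Cy3 intensities of the 1-colour NimbleGen arrays with RMA, and the deposited intensities are linear values per probe set. Neither version, settings nor the set of arrays RMA was run on is given in the sources used here, and a shift shared by most genes would not show if arrays were brought to one distribution. Of 45033 probe sets, 45031 hold 3 probes and 42947 carry a gene ID; 38916 of these matched RefSeq's gene table (GRCh38.p14), which gave their symbols. Arrays were used as deposited. Probe sets of a gene were averaged as log2 intensities without a pseudocount, and differences are LYAR-shRNA minus scramble-shRNA. Values under 2 times the random control probes (60.7 and 65.4) were treated as near background, and a fold against one was written as at least N-fold, taking the smallest over the gene's probe sets; where the probe sets gave no single direction, none is stated or their values are given. The pooled SD used genes that passed the filter and had 2 or more probe sets.

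Named genes were the 10 receptors, LYAR, 10 ligand and signalling genes, and up to 3 passing genes in each direction of 6 lists; LTBR, LTA, CXCL3, the neighbours on chromosome 8 and the markers were added to these, and 1 erythroid marker is not reported here. Members and lists were chosen with earlier results of these data known. Counts at 2-fold or 1.5-fold took in filtered genes only. Precision is limited by the number of arrays, 1 in each group. Alternatives were the brightest probe set, the median of probe sets, probe sets above background, the deposited series table (22639 probe sets, equal to the array files within 0.0403), a pseudocount of 32, centring, quantile normalization, removal of a lowess trend (span 0.5), and no filter. Python 3.11.15, pandas 2.3.3 and statsmodels 0.14.6 were used, and the counting step was tested on simulated data.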

Additional observations from a re-analysis of the deposited data

How the results depend on the processing

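Under the 8 alternatives that give a value per gene, the 80 receptor differences were all below 0, from -0.70 for TNFRSF12A to -0.05 for TNFRSF10D. With the median of the probe sets 2 receptor genes, not 1, were at least 1.5-fold lower, because TNFRSF25 then reached -0.61. The count of receptors at 2-fold was 0 in each direction throughout. The median of the death and decoy receptors ran from -0.40 to -0.33 and that of the other 2 from -0.58 to -0.48. Over all genes, those at least 2-fold higher numbered 642 as reported, 1167 with no filter and 408 with the pseudocount; those at least 2-fold lower numbered 452, and 1025, 301 and, with the brightest probe set, 753. The intensity of the filter was held fixed, and 14013 genes passed it with the brightest probe set, against 12682 as reported. With no filter all 23619 genes were counted. No paired analysis was possible because each group has 1 array, and none could be left out. Signal over background limits TNFRSF1B and the ligand genes most.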
